A study of Homo sapiens with 6 samples.

Results

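Histones are the proteins around which DNA is wrapped, and their genes were followed here in BxPC-3 tumors from mice given deferasirox (DFX), an oral iron chelator, and from mice given the vehicle. A gene was counted as a histone gene when its name on the array began with HIST1H to HIST4H, H2AF, H3F3 or H1F, which took in 85 of the 34423 gene names on the array. Of these, 70 were replication-dependent genes (names beginning with HIST, 84 probes) and 15 were replacement histone genes (H2AF, H3F3 and H1F, 23 probes), out of 50599 probes in all. At least 1 probe exceeded its local background on all 6 arrays for 76 of the 85 genes, 63 of them replication-dependent and 13 replacement, and these 76 were tested. The name rule also took in H1FX-AS1, an antisense transcript, and HIST1H2APS1, a pseudogene.

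The tumors were grown from BxPC-3, an established line of human pancreatic adenocarcinoma, under the skin of BALB/c nude mice aged 8 to 10 weeks, which lack T cells but keep other host cells. From a tumor volume of 150 mm3, mice received 200 mg/kg DFX in saline by gavage, 3 treatments per week for 21 days, or the vehicle alone. From either group 3 tumors were hybridized, each to its own one-color Agilent array of human 60-base probes, so that mouse transcripts of the host could also contribute signal. All values come from 1 cell line, and the labels do not tie the tumors to separate mice.

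Replication-dependent histone genes lie in clusters, the largest of them HIST1 on chromosome 6, and supply the bulk of histone protein during DNA synthesis. Most of their mRNAs end in a conserved stem-loop in place of a poly(A) tail, and the stem-loop binding protein SLBP governs their processing and their decay when DNA synthesis stops. Replacement histones, such as H2A.Z, H3.3 and H1.0, are mostly made throughout the cell cycle from polyadenylated mRNAs and are exchanged into chromatin outside replication. The labelling kit used here primes with oligo-dT, so a replication-dependent histone signal stands for whatever part of its RNA was primed that way. In a whole tumor, fewer cycling cells and less histone RNA per cell cannot be told apart.

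Where an array probe lies decides which RNA it can measure, so the stem-loop was searched for in the probes themselves. A 16-base pattern that allows for its variable positions was present whole in 6 of the 84 replication-dependent probes, and 5 more ended within it after 6 or more of its bases. Neither was the case for the other 73, and shorter parts were not counted. The tested probes with the whole stem-loop are shown around that element, in capitals, because the element lies at the end of the mature message. Whether their signal came from that message or from polyadenylated RNA was not tested. They lie on hg19 at chr6:27776386-27776445 (plus strand), chr6:26184399-26184458 (plus), chr6:27778255-27778314 (plus), chr6:27798954-27799013 (minus) and chr1:149824626-149824685 (plus).
HIST1H2AI: ggaaccaaaGGCTCTTTTCAGAGCCaccta
HIST1H2BE: aaacccaaaGGCTCTTTTCAGAGCCactca
HIST1H3H: atacccaaaGGCTCTTTTCAGAGCCaccca
HIST1H4K: tcaacaaaaGGCCCTTTTTAGGGCCcc
HIST2H3A: tatccaaaaGGCTCTTTTCAGAGCCacc
The capitals spell the same 16 bases in the H2A, H2B and H3 genes and another version of the element in HIST1H4K. Elsewhere in these genes the sequences are alike too. Of the 76 tested replication-dependent probes, 24 shared 45 or more of their 60 bases with a probe of another histone gene without gaps, against 1 of 20 replacement probes. The closest were HIST1H2AD and HIST1H2AK, with 53 shared bases, so values of such neighbors may partly report each other.

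All 85 genes matched the RefSeq table of GRCh38.p14, and 76 had a promoter there, taken as 250 bases before to 50 bases after the start of the gene. On both strands, 3 motifs were searched: the CCAAT box (CCAAT), the TATA box (TATAAA) and the octamer (ATTTGCAT), none of which contains another. A CCAAT box stood in 53 of 63 replication-dependent promoters (84.1%) and in 10 of 13 replacement promoters (76.9%), while 35.7% of all 27305 promoters held one. A TATA box stood in 65.1% of the replication-dependent and 30.8% of the replacement promoters, and in 3264 of all promoters. The octamer, a site for POU-domain factors, stood in 26 of 63 replication-dependent promoters (41.3%), in 1 of 13 replacement promoters and in 1.80% of all promoters. It was found in 11 of 15 H2A and 14 of 18 H2B promoters, in 1 of 11 H3 promoters and in none of the 6 H1 and 13 H4 promoters. Only 3 of the 13 H4 promoters held a CCAAT box, whereas every H1, H2A, H2B and H3 promoter did.

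Below, 3 promoters are printed with the motif letters in capitals, each because a result described below concerns its gene. The first belongs to HIST2H2AC and is shared with its neighbor HIST2H2BE, which starts 236 bases away on the opposite strand (GRCh38.p14, chr1:149886668-149886967, plus strand). The second is that of HIST1H1B, the linker histone gene with the largest difference among those tested (chr6:27867539-27867838, minus strand). The third is that of H3F3B, a replacement gene whose promoter holds 4 CCAAT boxes, 1 TATA box and 1 octamer (chr17:75779730-75780029, minus strand).
HIST2H2AC: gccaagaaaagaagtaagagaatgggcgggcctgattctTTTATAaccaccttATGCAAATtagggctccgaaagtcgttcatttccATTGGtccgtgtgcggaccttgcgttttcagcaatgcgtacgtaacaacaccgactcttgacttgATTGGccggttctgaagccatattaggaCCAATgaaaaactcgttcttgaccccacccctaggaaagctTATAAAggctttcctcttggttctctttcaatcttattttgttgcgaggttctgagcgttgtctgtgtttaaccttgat
HIST1H1B: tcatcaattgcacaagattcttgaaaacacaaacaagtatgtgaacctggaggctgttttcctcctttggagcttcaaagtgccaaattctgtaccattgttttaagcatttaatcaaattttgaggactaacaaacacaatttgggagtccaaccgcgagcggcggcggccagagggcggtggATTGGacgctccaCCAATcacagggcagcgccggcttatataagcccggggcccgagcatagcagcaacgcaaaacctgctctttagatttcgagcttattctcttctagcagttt
H3F3B: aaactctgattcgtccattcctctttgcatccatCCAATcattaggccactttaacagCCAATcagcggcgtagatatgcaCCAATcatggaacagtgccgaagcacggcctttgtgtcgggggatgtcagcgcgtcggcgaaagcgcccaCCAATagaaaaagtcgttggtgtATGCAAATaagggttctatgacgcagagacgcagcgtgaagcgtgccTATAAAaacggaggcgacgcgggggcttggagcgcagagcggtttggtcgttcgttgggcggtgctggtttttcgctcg
The HIST2H2AC promoter held 3 CCAAT boxes, 2 TATA boxes and 1 octamer, with 1 TATA box shortly before the start of either gene. The HIST1H1B promoter held 2 CCAAT boxes and neither of the other motifs in these exact letters.

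To ask whether the histone genes differed between DFX-treated and control tumors, the background-subtracted signal was log2-transformed, quantile-normalized and compared with limma. Levels below are these log2 intensities, which can be compared between tumors for 1 probe but not between probes, and differences are DFX minus control. Where a gene had several tested probes, the one with the highest mean stands for it. None of the 63 replication-dependent genes and none of the 13 replacement genes passed an unadjusted limma p of 0.05 in either direction, where 3.68% of the 22718 tested genes were called higher and 4.29% lower. With p-values adjusted by Benjamini-Hochberg across the whole array, 0% of all genes were called, and the lowest adjusted limma p was 0.598 among replication-dependent and 0.609 among replacement genes. The Kruskal-Wallis H test, which at this size passes every gene whose groups do not overlap, called 1 replication-dependent gene higher, 3 lower and 1 replacement gene lower at an unadjusted p under 0.05, where it called 7.03% of all tested genes higher and 8.41% lower.

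The differences were small in most members. Over the 63 replication-dependent genes the median difference was 0.012 on the log2 scale, with 33 values above 0 and 30 below, and it ranged from -0.55 to 0.43. Over the 13 replacement genes the median was -0.056, with 5 values above 0 and 8 below, and it was -0.012 over all tested genes. In 62 of the 63 replication-dependent genes (98.4%) the difference stayed within 0.5 of 0, against 88.4% of all tested genes. The 95% interval lay within 1 of 0, so that a change of 2-fold or more fell outside it, for 58 of 63 replication-dependent and 11 of 13 replacement genes, against 78.4% of all tested genes. Restricted to probes well above background on all arrays, the medians were 0.0064 over 62 replication-dependent, -0.033 over 10 replacement and -0.0074 over all genes. There, 98.4% of replication-dependent, 100% of replacement and 94.0% of all genes stayed within 0.5 of 0. The interval lay within 1 of 0 for 93.5%, 100% and 90.4% of them, so the gap to all genes was smaller among these brighter probes.

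**Figure D1:**
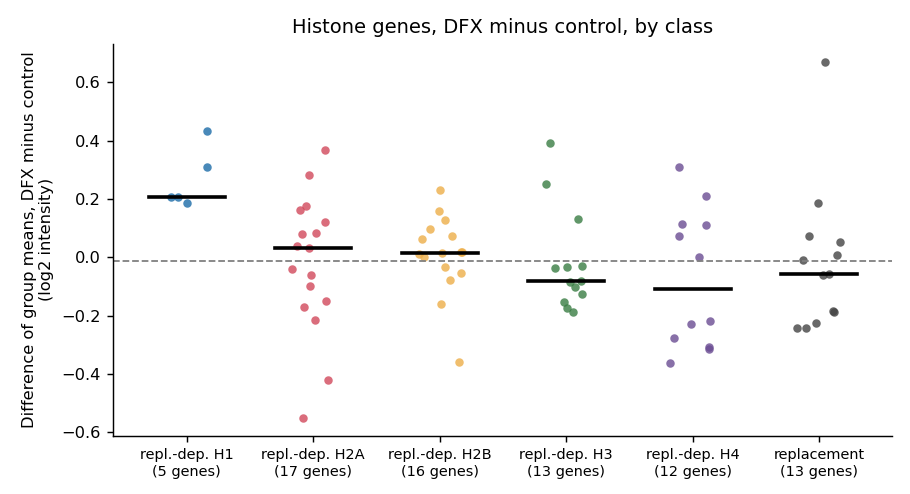
Difference between group means (DFX minus control, log2 intensity) for each of the 76 tested histone genes, in columns by class; points are genes, black bars class medians and the dashed line the median over all 22718 tested genes. All 5 replication-dependent H1 genes lie above 0, while 10 of 13 replication-dependent H3 genes and 7 of 12 H4 genes lie below it.

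By protein, the replication-dependent linker histones stood on one side of 0. H1 proteins bind the DNA that enters and leaves the nucleosome, and all 5 tested HIST1H1 genes had higher means with DFX, between 0.19 and 0.43, with a median of 0.21. The core histones were split: 9 of 17 H2A genes (median 0.030), 11 of 16 H2B genes (median 0.015), 3 of 13 H3 genes (median -0.083) and 5 of 12 H4 genes (median -0.11) had higher means with DFX. The median H1 difference stayed above 0 under all 18 alternative settings, from 0.11 to 0.44, although 1 of the 5 genes turned below 0 without control 1 or without DFX 1. Among the 18, the Kruskal-Wallis H test, the replicate block and keeping flagged spots left every class median unchanged, so they add no separate check of it. The H2A median stayed above 0 under 12 and the H2B median under 15 of the 18 settings. Both turned below 0 under median scaling (-0.083 and -0.094), which moved the median of all genes to -0.095, and the H3 and H4 medians each rose above 0 under 1 setting.

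**Figure D2:**
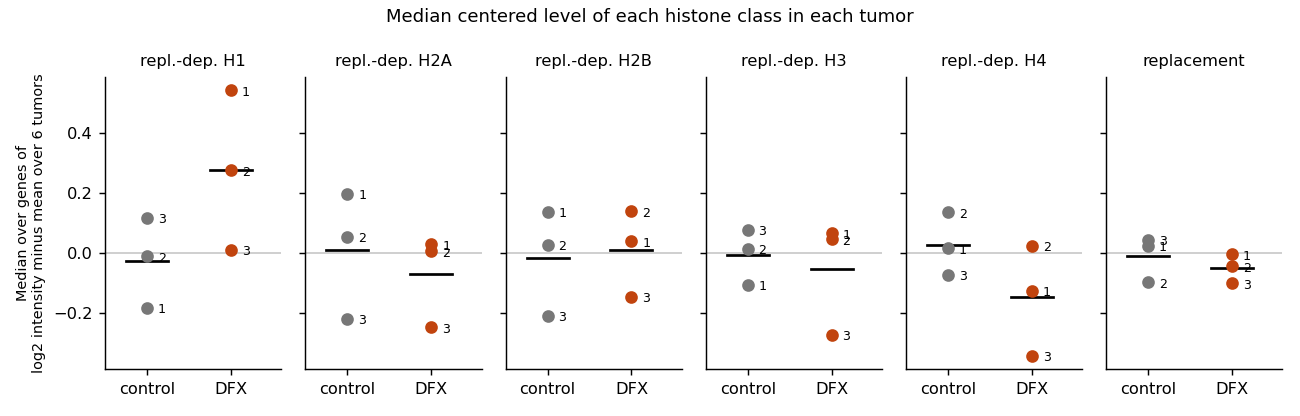
Median over the genes of each class of log2 intensity minus the gene's mean over the control tumors, by tumor. The axis label names the 6 tumors, but the values are centered on the control tumors. Gray points are control and orange points DFX-treated tumors, numbers are replicates and bars are group means. The groups overlap in every class. DFX 3 lies below the other 5 tumors in the H3 and H4 panels and, by less, in the H2A and replacement panels.

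In each tumor, the class was summarised as the median over its genes after centering each gene on its mean over the control tumors. Control values therefore lie near 0 by construction. For H1 these medians were -0.18, -0.011 and 0.12 in control tumors 1 to 3, and 0.54, 0.28 and 0.011 in DFX tumors 1 to 3. DFX 1 and DFX 2 were thus above every control tumor, and DFX 3 was within the control range. For H4 they were 0.015, 0.13 and -0.072 in the controls and -0.13, 0.025 and -0.34 with DFX, and for replacement histones 0.024, -0.097 and 0.044 against -0.0039, -0.044 and -0.10. The control and DFX values overlapped in both.

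Among linker histones, HIST1H1B had the largest difference in the higher direction of the 63 replication-dependent genes. Its probe (hg19 chr6:27834629-27834688, minus strand) gave 10.07, 10.32 and 10.37 in the control tumors and 11.05, 10.75 and 10.27 with DFX. DFX 3 lay among the controls. The means were 10.25 ± 0.16 and 10.69 ± 0.40 (SD, n = 3 each), a difference of 0.43 (95% interval -0.10 to 0.97), with an adjusted limma p of 0.643. HIST1H1C, which also has a polyadenylated form and was the brightest H1 probe, gave 13.86, 13.58 and 13.32 against 13.71, 13.86 and 13.81. Here control 3 was the low tumor, and the difference of 0.21 had an interval from -0.18 to 0.60.

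The H2A and H2B genes mostly sit head to head, a gene of each kind starting from opposite strands of a shared promoter. By the RefSeq positions 13 pairs of histone genes had starts on opposite strands between 194 and 979 bases apart, and both genes were tested in 10 of them. The 2 genes of a pair differed in the same direction in 6 of the 10. The widest gap was between HIST2H2AC and HIST2H2BE, whose shared promoter is printed above.

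HIST2H2AC, which encodes an H2A protein, gave 11.38, 11.59 and 11.53 in the controls and 12.07, 11.93 and 11.59 with DFX (probe at chr1:149858863-149858922, plus strand). All 3 DFX values were above the 3 control values, though DFX 3 exceeded control 2 by less than these decimals show. It was the only replication-dependent gene of the 63 with this pattern in the higher direction, where 7.03% of all tested genes had it. The means were 11.50 ± 0.11 and 11.87 ± 0.24 (SD, n = 3 each), with a difference of 0.37 (95% interval -0.01 to 0.75) and an adjusted limma p of 0.602.

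HIST2H2BE, the H2B gene on the other side, gave 6.97, 7.04 and 5.83 against 6.14, 6.27 and 6.36 (probe at chr1:149857064-149857123, minus strand). Control 3 was lower than every DFX tumor, and the other controls were higher. The difference was -0.36 with an interval from -1.18 to 0.46, and a second HIST2H2BE probe, nearer the start of the gene, differed by -0.02. HIST2H2BE is known for a long polyadenylated transcript, in which the first probe lies far downstream.

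HIST3H2A had the largest difference in the lower direction, and with HIST3H2BB (-0.16) and HIST3H3 (-0.10) all 3 tested HIST3 genes had lower means with DFX. HIST3H2A gave 6.06, 6.46 and 6.19 in the controls and 5.34, 6.13 and 5.59 with DFX. DFX 2 lay between control 1 and control 3, and the other DFX tumors were below the controls. The difference was -0.55 (95% interval -1.11 to 0.01) with an adjusted limma p of 0.598, and it passed an unadjusted p of 0.05 under 6 of 18 settings. HIST1H2AB followed, with 11.45, 11.14 and 10.64 against 10.70, 10.78 and 10.48, a difference of -0.42 (interval -0.97 to 0.13). Control 3 was the low control in HIST1H2AB as it was in HIST2H2BE.

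The brightest replication-dependent H2A and H2B probes had small differences. HIST1H2AJ, the brightest replication-dependent H2A probe, gave 14.29, 14.17 and 13.88 against 14.11, 14.08 and 13.71, a difference of -0.15 (interval -0.56 to 0.27); its probe shares 51 bases with that of HIST1H2AK. HIST1H2BK, the brightest H2B probe, gave 13.91, 13.69 and 13.40 against 13.95, 13.99 and 13.76, a difference of 0.23 (interval -0.16 to 0.63). A second HIST1H2BK probe gave -0.05, so the 2 probes of that gene stood on opposite sides of 0. The other genes with known polyadenylated forms differed by 0.03 (HIST1H2AC), 0.02 (HIST1H2BC and HIST1H2BJ), -0.05 (HIST1H2BD) and -0.0008 (HIST4H4). None of the 9 tested genes of that list was called, where 3.68% of all tested genes were called higher and 4.29% lower. The list's median was 0.016.

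H3 proteins form, with H4, the tetramer at the center of the nucleosome. In HIST1H3A, HIST1H3C and HIST3H3 the 3 DFX tumors were all below the 3 control tumors, which is 3 of 63 replication-dependent genes where 8.41% of all tested genes had this pattern. HIST1H3C gave 13.65, 13.70 and 13.67 against 13.43, 13.55 and 13.47, a difference of -0.19 (interval -0.42 to 0.05; adjusted limma p 0.643). HIST1H3A gave 13.63, 13.42 and 13.55 against 13.41, 13.39 and 13.34, with control 2 just above DFX 1, and the difference was -0.15. HIST3H3, a gene known from testis and the brightest replication-dependent H3 probe, gave 15.52, 15.52 and 15.48 against 15.47, 15.36 and 15.40, a difference of -0.10. Its probe shares 44 of 60 bases with that of HIST1H3C, and which gene gave its signal was not tested.

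Other H3 genes differed in the opposite direction. HIST2H3A, whose probe holds the stem-loop, gave 11.01, 11.99 and 11.97 against 12.34, 12.61 and 11.21. Control 1 and DFX 3 were the 2 low tumors, and the difference of 0.39 had an interval from -0.70 to 1.48. HIST1H3B (0.25) and HIST1H3J (0.13) were the other H3 genes with higher means.

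H4 genes were divided in the same way. HIST1H4C, the brightest replication-dependent probe of its class, gave 16.82, 16.75 and 16.91 against 17.07, 16.99 and 16.76, a difference of 0.11 (interval -0.19 to 0.41). HIST2H4B gave 11.66, 11.75 and 11.19 against 11.27, 11.21 and 11.01, a difference of -0.36 (interval -0.80 to 0.07), and control 3 lay below DFX 1 and DFX 2. For HIST1H4K and HIST1H4L, 2 probes of the same gene differed in opposite directions. The HIST1H4K probe with the stem-loop gave 0.12 and the other -0.23, and the HIST1H4L probes gave 0.12 and -0.31.

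**Figure D3:**
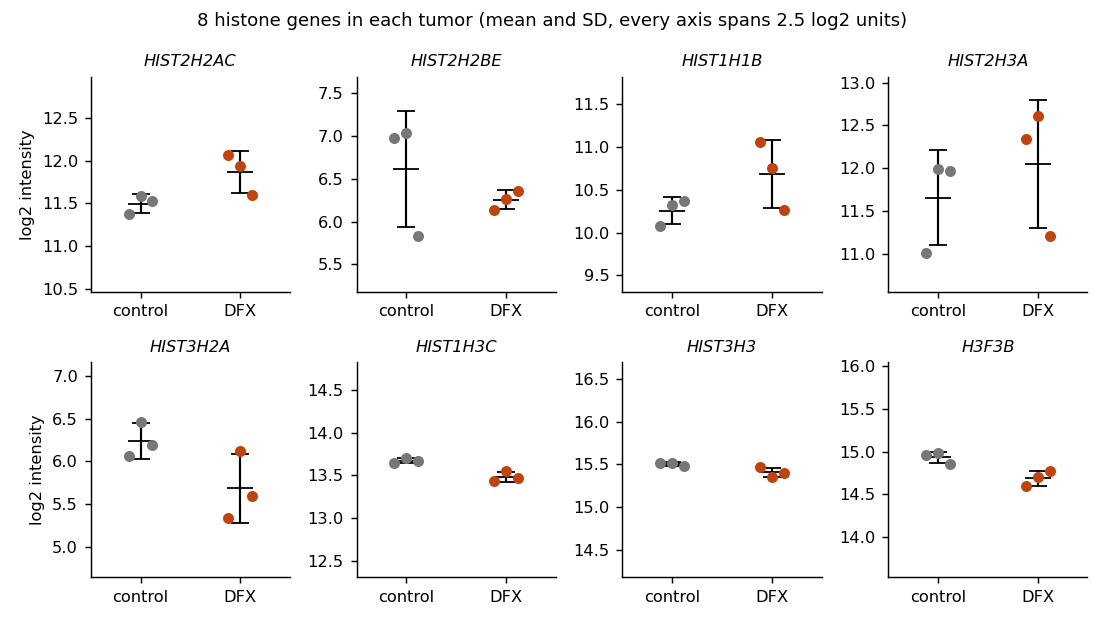
Normalized log2 intensity of 8 histone genes in each tumor, gray for control and orange for DFX, with mean and SD (n = 3); every vertical axis spans the same number of log2 units, but its origin differs between genes. HIST2H2AC is the only gene of the 8 with every DFX tumor above the controls, and in HIST1H3C, HIST3H3 and H3F3B every DFX tumor is below them.

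Replacement histones began with H3.3, which H3F3A and H3F3B both encode. H3F3B gave 14.96, 14.98 and 14.86 in the controls and 14.60, 14.70 and 14.77 with DFX (chr17:73774912-73774971, minus strand). All DFX tumors were below the controls, 1 of 13 replacement genes where 8.41% of all tested genes had this pattern, and no replacement gene had the opposite one, which 7.03% of all tested genes had. The means were 14.93 ± 0.07 and 14.69 ± 0.09 (SD, n = 3 each), a difference of -0.24 (95% interval -0.50 to 0.01) with an adjusted limma p of 0.609. A second, dimmer H3F3B probe differed by -0.33 with overlapping groups, as DFX 2 lay between the controls. H3F3A, by contrast, gave 16.77, 16.64 and 16.72 against 16.67, 16.64 and 16.64, a difference of -0.06 (interval -0.30 to 0.17), and its other 3 probes differed by -0.06, -0.004 and 0.003.

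Of the H2A replacement genes, H2AFZ and H2AFV encode the closely related H2A.Z proteins, which mark promoters. H2AFZ gave 13.92, 13.85 and 14.12 against 13.82, 13.91 and 13.49, with DFX 3 the lowest tumor and a difference of -0.23 (interval -0.60 to 0.15). H2AFV gave 14.34, 14.34 and 14.64 against 14.50, 14.35 and 14.43, a difference of -0.01 (interval -0.32 to 0.30). H2AFX, which encodes the histone phosphorylated at DNA breaks, gave 12.98, 12.95 and 13.48 against 13.36, 13.36 and 13.25. Control 3 was the highest tumor and the other controls the lowest, and the difference was 0.19 (interval -0.22 to 0.60).

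H2AFY, which encodes macroH2A1, varied little, with 14.27, 14.29 and 14.31 against 14.36, 14.35 and 14.19 and a difference of 0.01 (interval -0.24 to 0.26). H2AFJ, a further H2A variant, differed by 0.05 and its dimmer probe by -0.22. Among replacement linker histones, H1F0, which accumulates in differentiated cells, gave 11.52, 11.37 and 11.60 against 11.32, 11.45 and 11.54, a difference of -0.06 (interval -0.34 to 0.23). H1FX differed by 0.07 and the testis gene H1FNT by -0.19, both with intervals across 0.

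H2AFB2 differed by 0.67, with the widest range over the 6 tumors among the 76 tested genes, and its difference ran from 0.01 without control 1 to 1.36 without control 2. It gave 2.87, 5.57 and 4.14 against 4.27, 5.35 and 4.96, and was well above background in only 1 control and 2 DFX tumors. No DFX tumor had H2AFB3 well above background, no control tumor HIST1H2APS1 and none of the 6 tumors H1FX-AS1, so no fold is given for them. The 9 genes without a tested probe were H1FOO, H2AFY2, HIST1H1T, HIST1H2BA, HIST1H2BF, HIST1H4E, HIST1H4G, HIST2H2BA and HIST2H4A, and of these HIST1H4E alone was well above background in any tumor.

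**Figure D4:**
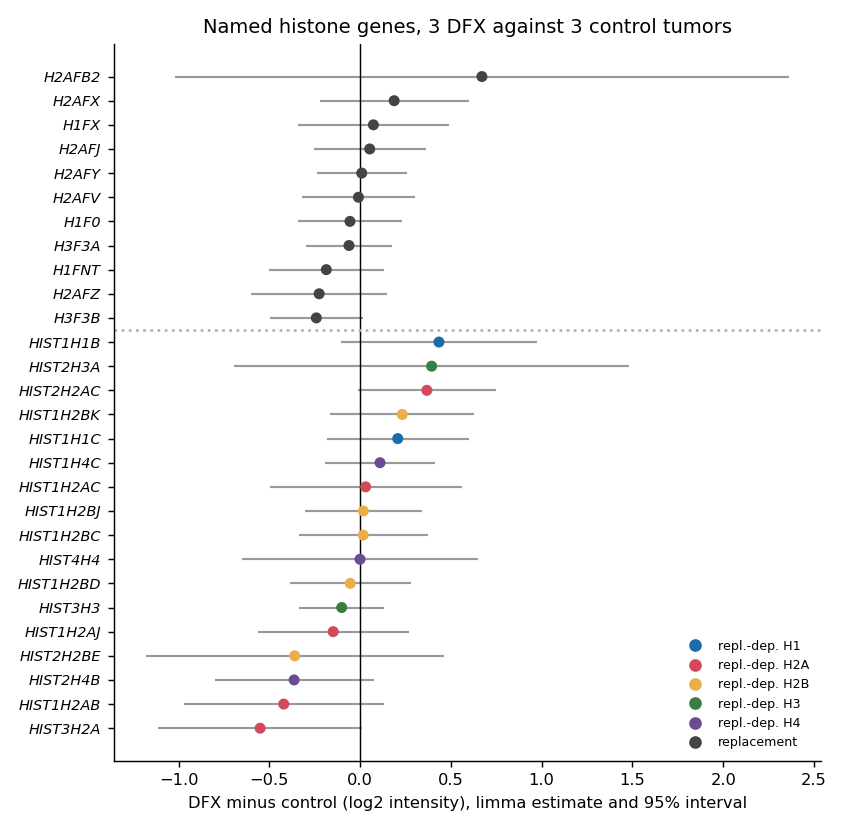
Difference between DFX-treated and control tumors (log2 intensity) with its 95% limma interval for histone genes described in the text, replacement genes above the dotted line and replication-dependent genes below it, colored by class. Every interval includes 0; the widest are those of H2AFB2 and HIST2H3A.

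The difference between group means was smaller than the larger of the 2 within-group ranges in 62 of the 63 replication-dependent and 12 of the 13 replacement genes. It was so too for 34 of 36 tested S phase and all 20 tested G2/M genes, and the share over all tested genes was not taken. The median range over the 3 control tumors was 0.39 and over the 3 DFX tumors 0.35 for replication-dependent genes, and 0.30 and 0.22 for replacement genes. Values within a group are described next, without a test, since each stands for a single tumor.

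Control 1 and control 3 are shown, a choice made after their values were seen, because genes of S phase and of G2/M set them far apart. Of 36 tested S phase genes, such as those of the replication machinery, 35 were higher in control 3 than in control 1 by a median of 0.55, and all 20 tested G2/M genes by a median of 0.75. Replication-dependent histones were divided between the same 2 tumors: 26 of 63 were higher in control 3 and 37 lower, with a median of -0.15. H1 (4 of 5 higher, median 0.30) and H3 genes (9 of 13, median 0.21) were mostly higher in control 3, H2A (6 of 17, median -0.41) and H2B genes (1 of 16, median -0.34) mostly lower, and H4 genes evenly divided (6 of 12). HIST1H1A was higher in control 3 by 1.19, HIST2H3A by 0.96 and HIST1H2BE by 0.77, whereas HIST2H2BE was lower by 1.14, HIST1H2AD by 0.85 and HIST1H2AB by 0.81.

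The same difference was set against what the probes hold. Of the 7 genes whose brightest probe held 6 or more stem-loop bases, 6 were higher in control 3, with a median of 0.36. Of the 56 genes whose brightest probe did not, 20 were higher, with a median of -0.23. Of the 9 tested genes with known polyadenylated transcripts, 2 were higher and 7 lower, with a median of -0.39. HIST1H2BE, whose probe covers the stem-loop, was the only H2B gene of the 16 that was higher. These groups of genes overlap with protein class and with shared probe sequence, whose part in the split was not tested.

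Among DFX tumors, DFX 1 and DFX 3 were the far pair, likewise chosen after their values were seen, with 35 of 36 S phase and all 20 G2/M genes higher in DFX 1. Here the replication-dependent histones moved mostly one way. In DFX 1, 49 of 63 were higher than in DFX 3, by a median of 0.26 over all 63, and among the genes with stem-loop bases in the probe 6 of 7 were, by a median of 0.80. HIST2H3A (1.13), HIST1H1A (1.09) and HIST1H2AG (0.98) had the largest differences of that kind. Replacement histones differed less, by a median of 0.11 between DFX 1 and DFX 3 and 0.04 between control 3 and control 1.

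**Figure D5:**
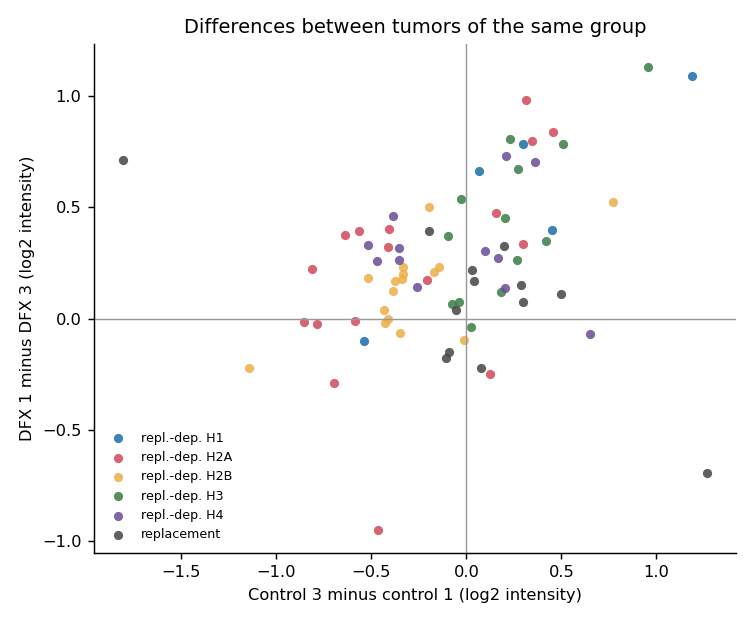
Difference between 2 control tumors (horizontal, control 3 minus control 1) and between 2 DFX tumors (vertical, DFX 1 minus DFX 3) in log2 intensity, for each of the 76 tested histone genes colored by class. Most H2A and H2B genes lie left of 0 and most H1 and H3 genes right of it, while 49 of 63 replication-dependent genes lie above the horizontal line.

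Calls depended most on control 3 and DFX 3. Without control 3, 1 replication-dependent gene (HIST1H1D) was called higher and 5 (HIST1H2AB, HIST1H4H, HIST1H4I, HIST2H2BE and HIST2H4B) lower at an unadjusted limma p under 0.05, and H2AFX was called higher, where 3.56% of all tested genes were called higher and 4.16% lower. Without DFX 3, 7 replication-dependent genes were called higher, namely HIST1H1B, HIST1H1E, HIST1H2AI, HIST1H3B, HIST1H4A, HIST1H4D and HIST2H2AC, and none lower, where 3.56% of all tested genes were called higher and 4.45% lower. Without control 2 H2AFB2 was called higher (3.1% of all genes), and without DFX 2 HIST3H2A was called lower (3.72% of all genes).

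None of the genes that make and handle histones was called at an unadjusted limma p under 0.05. Of all tested genes, 3.68% were called higher and 4.29% lower. The list on histone gene expression and 3' end processing had 15 tested genes with a median difference of -0.10, and the list of histone chaperones and deposition factors had 25 with a median of 0.006. SLBP, which binds the stem-loop, gave 12.26, 12.21 and 12.54 against 12.05, 12.22 and 12.20, a difference of -0.18 (interval -0.50 to 0.14). NPAT, the coactivator that switches on histone clusters at the start of S phase, gave 6.89, 6.73 and 6.92 against 6.57, 6.66 and 6.63. Every DFX tumor was below the controls, and the difference was -0.22 (interval -0.48 to 0.04). It was 1 of 15 genes with this pattern, which 8.41% of all tested genes had. POU2F1, also 1 of the 15, had every DFX tumor above the controls, a pattern of 7.03% of all tested genes. Its difference was 0.22 (interval -0.03 to 0.46). CENPA, the centromeric H3 variant, differed by -0.07 (interval -0.72 to 0.59).

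In the S phase list E2F1, a transcription factor of S phase entry, rose at an unadjusted limma p under 0.05 and no gene fell, beside the 3.68% of all genes called higher. E2F1 was 0.48 higher (unadjusted limma p 0.0117, adjusted 0.514), with means of 9.47 ± 0.08 in the controls and 9.95 ± 0.19 with DFX (SD, n = 3 each). Every DFX tumor was above the controls, a pattern of 7.03% of all tested genes. The E2F1 call was lost under 1 of 18 settings. PCNA, the sliding clamp of DNA polymerases, differed by 0.05, and MKI67, a marker of cycling cells, by 0.21, both with intervals across 0. The 36 tested S phase genes had a median of 0.066, and none of the 20 tested G2/M genes was called (median -0.085).

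The arrays were alike in quality, with 50.3% to 56.5% of probes well above background, no saturated spot and correlations of 0.983 to 0.990 within and 0.980 to 0.988 between groups. All arrays lay on 1 slide with the controls in row 1 and the DFX tumors in row 2, so row and treatment cannot be told apart. The epithelial markers KRT8, KRT18 and EPCAM were well above background in all 6 tumors, and 3 of 10 were called higher with DFX (KRT8 by 0.48, EPCAM by 0.43 and KRT18 by 0.27). Of 12 tested intestinal epithelial markers 7 were called higher, and of 6 red blood cell markers 2 were called lower. Fibroblast and endothelial markers had 1 call in each direction, and none of 6 leukocyte markers was called. All these calls were at an unadjusted limma p under 0.05, where 3.68% of all tested genes were called higher and 4.29% lower. The summed linear intensity of the red blood cell markers ran from 6769 to 8064 in the controls and from 3157 to 3317 with DFX, and the part of these cell types in the histone values was not tested.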

How the data were processed

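Tumor RNA was hybridized to one-color 60K arrays, 3 control and 3 DFX-treated tumors, grouped by the labels. The authors deposited scanner files from Feature Extraction 10.7.1.1 (the labels name 9.5.1.1) with linear intensity per spot and a p-value of each spot against its background, and a table of their normalized intensity, used as an alternative. Those values were not normalized between arrays in the scanner files. The study's methods give log2 transformation and quantile normalization of raw intensities. Here the processed, background-subtracted signals of 58717 spots were treated so, with the raw mean signal as an alternative. Outlier flags then removed 1398 spot values, replicate spots were averaged per probe, and 31807 of 50599 probes with a detection p-value under 0.05 in every tumor were tested. The methods name no test for the arrays. limma 3.58.1 in R 4.3.3 (lmFit, eBayes, two-sided, no covariate) was used with Benjamini-Hochberg adjustment over all 31807 probes, and was tested on simulated data. p-values measure the spread between 3 tumors a group, whose number limits the precision.

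The members and the gene lists were chosen with earlier results of these data known. Named genes are all tested replacement genes, the brightest replication-dependent gene of each protein class, genes with known polyadenylated transcripts, the 3 largest rises and 3 largest falls, SLBP, NPAT, CENPA, PCNA, MKI67 and related genes past an unadjusted p of 0.05; others were named after their values were seen. Alternatives covered normalization, background correction, dim probes, outlier flags, the authors' values, the Kruskal-Wallis H test, the replicate block, the slide column, averaging a gene's probes, and leaving out each tumor. Probe positions and gene names are those of the array annotation (hg19); promoters and current names are from RefSeq. Replicate numbers did not pair the tumors (correlations of same-numbered deviations 0.027, 0.027 and 0.016). A result of the S phase list is not reported here.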

Additional observations from a re-analysis of the deposited data

Results flagged for a closer look

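The probe of HIST1H4E, one of the H4 genes of the HIST1 cluster, did not pass the detection filter and so entered no comparison. Its normalized log2 intensity was 6.86 in DFX 2 and well above background there, but 1.94, 1.96 and 1.95 in control 1 to control 3, 1.94 in DFX 1 and 1.96 in DFX 3. No value of this probe was marked as an outlier by the scanner software, and 1 spot in 1 tumor gives no replicate check.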

How the results depend on the processing

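At an unadjusted p under 0.05, none of the 63 replication-dependent and 13 replacement genes was called. Counts of calls departed from 0 as follows. With median scaling, 3 replication-dependent genes and 1 replacement gene were called lower, and the replacement median was -0.16, while 567 of the 22718 tested genes were called higher and 1204 lower and their median was -0.095. With normexp background correction and with the raw mean signal alike, 1 replication-dependent gene was called higher (HIST2H2AC), 4 lower (HIST1H3C, HIST1H4I, HIST2H4B and HIST3H2A) and 1 replacement gene lower (H3F3B), where 1001 and 1052 of all genes were called higher and 968 and 1015 lower. Without a filter on dim probes, 1 gene of each kind was called lower, and 1497 of all 34423 genes. With probes well above background on all arrays, 1 of 62 replication-dependent genes was called higher and 1 lower. Of all 17816 genes with such probes, 796 were called higher and 781 lower. The authors' values called 1 replacement gene lower. The Kruskal-Wallis H test called 1 replication-dependent gene higher, 3 lower and 1 replacement gene lower, and 1596 of all genes higher and 1911 lower. With the replicate block 1 replication-dependent gene (HIST3H2A) was called lower, as with the slide column as a block. The main fit called 3.68% of all tested genes higher and 4.29% lower. Such shares are not given for the authors' values or these blocks. With each tumor left out in turn, replication-dependent calls ran from 0 to 7 higher and from 0 to 5 lower, replacement calls from 0 to 1 higher, and calls over all genes from 527 higher (without DFX 1) to 905 higher (without control 1). No adjusted limma p of a histone gene passed 0.05 under any of the 18 settings. Of 663 values of the 37 named genes, 614 kept their side of the threshold and moved by less than the spread between tumors, 8 moved by more, 32 gained a call and 9 lost one. No called value reversed, and 47 uncalled values in 15 genes changed sign. Signal near background limits H2AFB2, H2AFB3, HIST1H2APS1 and H1FX-AS1.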
